A study of Ovis aries with 26 samples.

Results

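Expanded blastocysts of sheep were set against morulae, a comparison that spans blastocyst formation as a whole and leaves out the early blastocyst that lies between them. Poly(A) RNA had been sequenced in 26 libraries of oocytes and embryos covering 8 stages, and 7 of these libraries are used here, 4 of expanded blastocysts (ExpB) and 3 of morulae. Every gene with a level of at least 1 FPKM in at least 2 of the 7 libraries entered the comparison, which left 13056 of the 30186 genes in the table. FPKM is a read level scaled to the length of the gene and to the depth of the library, so levels of different genes can be compared within a library. Comparisons between libraries also depend on how the libraries are scaled, and the effect of other scalings is given below. At the edge of that rule, 1177 genes reached 1 FPKM in exactly 2 libraries and were kept (median of their mean level 0.768 FPKM), and 2055 genes reached it in 1 library and were left out (median 0.432 FPKM).

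The expanded blastocysts and the morulae were both made by in vitro fertilization of mature oocytes and grown in the same commercial embryo culture medium, and no genotype or treatment separates them: stage is the difference the labels give. Intact embryos were lysed and copied with Smart-seq2, which amplifies full-length cDNA from small inputs. The labels state neither the number of embryos in a library, nor their age in days, nor their breed, and they do not say whether replicates came from separate cultures. The p-values thus speak only of the spread among these libraries, and that spread may be technical.

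A morula is a ball of compacted cells. Its outer cells become the trophectoderm, an epithelium with tight junctions that pumps sodium inward so that water follows and a cavity opens, and its inner cells become the inner cell mass, from which epiblast and primitive endoderm separate. In ruminants the expanded blastocyst hatches and then elongates before it attaches, and its trophectoderm goes on to secrete interferon tau and prostaglandins. Each library is an average over all cells of its embryos, so fewer cells of a type and less RNA per cell cannot be told apart in what follows.

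The ExpB libraries held 19.3 to 25.4, and the morula libraries 25.9 to 30.4, assigned reads in units of 1e6. Pearson correlations of log2(FPKM + 1) over the tested genes lay between 0.966 and 0.985 for pairs of ExpB libraries, between 0.935 and 0.953 for pairs of morula libraries and between 0.742 and 0.804 across the groups. Fewer genes reached 1 FPKM in expanded blastocysts (10605 ± 265, SD, n = 4) than in morulae (11575 ± 113, SD, n = 3). RNA was also more concentrated: the 50 most abundant genes of a library took 38.8% ± 1.94 of all FPKM in expanded blastocysts and 27.3% ± 1.58 in morulae. Neither pair of groups overlapped, and for both the exact two-sided permutation p was 0.0571, the smallest that 4 against 3 libraries can give.

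Differences were taken on the log2(FPKM + 1) scale as ExpB minus morula and tested with limma's moderated test, with Benjamini-Hochberg adjusted p over all 13056 genes. A gene is described as higher or lower, or as having risen or fallen, only where the adjusted p was under 0.05 and the difference was at least 1 in size. By that rule 5280 genes (40.4%) differed, 1893 (14.5%) higher and 3387 (25.9%) lower in expanded blastocysts, and these shares are the background for each gene group below. All ExpB values lay above all morula values for 22.9% of the tested genes and below them for 37.4%. For single genes, means are given ± SD over the 4 ExpB or the 3 morula libraries, values per library run in library order, and groups that overlapped are named as such. The median difference of all genes was -0.28. When libraries were scaled by median ratios that median was -0.05, with 2425 genes higher (18.6%) and 2576 lower (19.7%), and after quantile normalization it was -0.03, with 2524 higher (19.3%) and 2484 lower (19.0%). On the TPM scale, which sets every library to the same sum, it was -0.37, with 2042 genes higher (15.6%) and 3948 lower (30.2%). The excess of falling over rising genes thus depended on the scaling, whereas no gene called in the unscaled fit was called in the opposite direction in any of the fits tried.

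**Figure D1:**
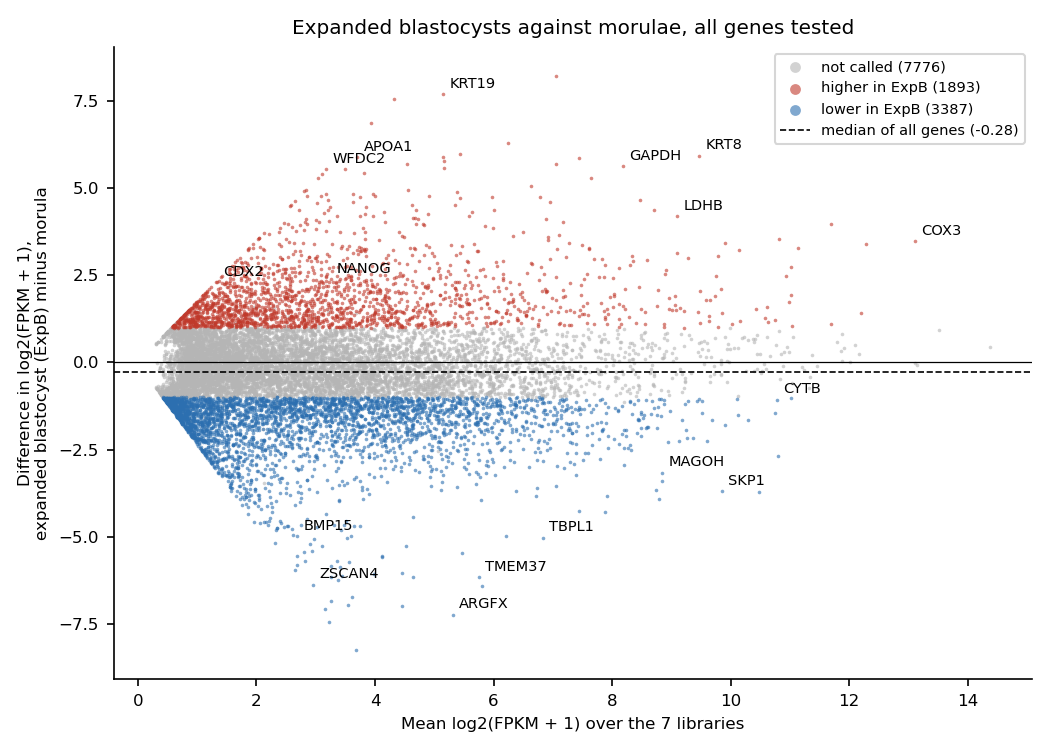
Difference in log2(FPKM + 1), expanded blastocyst minus morula (vertical axis), against the mean log2(FPKM + 1) over the 7 libraries (horizontal axis) for the 13056 genes tested, each a point. Red points are the 1893 genes higher and blue points the 3387 genes lower in expanded blastocysts, and the dashed line is the median of -0.28; KRT8, COX3 and GAPDH combined large rises with high levels, and ARGFX and TMEM37 were among the largest falls.

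The largest rises among named genes included keratins, membrane proteins and secreted proteins. KRT19, a keratin of simple epithelia, had 566, 239, 383 and 279.5 FPKM in expanded blastocysts, against 1.31, 0.997 and 0.0279 FPKM in morulae. Its partner keratins KRT8 and KRT18 stood at 5424, 2556, 4950.3 and 4324 FPKM (KRT8) and 1371, 419, 740.3 and 633 FPKM (KRT18) in expanded blastocysts, against 52.96, 84.9 and 65.7 FPKM (KRT8) and 8.51, 20.96 and 12.2 FPKM (KRT18) in morulae. The differences were 7.69 (SE 0.35, adjusted p = 9.1e-07) for KRT19, 5.94 for KRT8 and 5.69 for KRT18. ExpB library 1 was the highest of the 4 for each of them.

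Of the other leading rises, several encode membrane or secreted proteins. P2RX4, an ATP-gated cation channel, averaged 201 ± 32.2 FPKM in expanded blastocysts and 2.68 ± 0.972 FPKM in morulae. PRSS8, a membrane-anchored serine protease known to activate the epithelial sodium channel, averaged 188 ± 31.6 FPKM in expanded blastocysts and 3.26 ± 1.84 FPKM in morulae. SDC1 is a heparan sulphate proteoglycan of the cell surface; it was even across the ExpB libraries at 65.3, 70.1, 73.6 and 71.9 FPKM and lay below 1 FPKM in every morula library. WFDC2, a secreted protein of the whey acidic protein family, had 64.5, 42.9, 65.8 and 24.2 FPKM in the ExpB libraries and was listed at 0 in all 3 morula libraries. APOA1, the main apolipoprotein of high density lipoprotein, had 58.02, 76.4, 84.9 and 80.3 FPKM in expanded blastocysts, against 0.285, 0.2099 and 0.2804 FPKM in morulae, a difference of 5.901 (SE 0.19, adjusted p = 2.7e-07). SLC7A4, a member of the cationic amino acid transporter family, WIPF1, a partner of the actin regulator WASP, and SRM, spermidine synthase, rose by 4.85, 4.83 and 4.79.

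The largest falls included genes at high levels in the oocyte and genes that peaked later. ARGFX, a homeobox gene that eutherian embryos switch on around genome activation, was down to 3.95, 1.68, 4.21 and 5.68 FPKM in expanded blastocysts, against 1069, 537 and 598 FPKM in morulae, a difference of -7.24 (SE 0.34, adjusted p = 9.1e-07). Fellow early-embryo genes ZSCAN4 and KLF17 had at most 0.746 FPKM (ZSCAN4) and 0.967 FPKM (KLF17) in any ExpB library, and at least 56.5 FPKM (ZSCAN4) and 38.8 FPKM (KLF17) in any morula library. TMEM37, a gene for a membrane protein, had 3.68, 9.13, 10.7 and 9.28 FPKM in expanded blastocysts, against 497, 574 and 831 FPKM in morulae, and the stage means put its rise between the 8-cell (3.83 FPKM) and 16-cell (503 FPKM) embryo. TBPL1, a relative of the TATA-binding protein, kept 14.7, 25.9, 41.5 and 22.9 FPKM in expanded blastocysts, against 702, 748 and 1099.7 FPKM in morulae. CRYAB and BECN2 differed by -6.16 and -5.95 with wide spread among the morulae, 119, 269 and 40.2 FPKM for CRYAB, a small heat shock protein, and 33.3, 258 and 31.4 FPKM for BECN2, a gene of the beclin family of autophagy factors. PHYHIPL, CFAP300 and SDR16C5 completed the 15 leading falls with differences of -5.55, -5.42 and -5.18.

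By change in mean FPKM, the 3 leading rises were the mitochondrial cytochrome oxidase genes described below, and the 3 leading falls were LOC100240716, GCSH and SKP1. GCSH, the H protein of the glycine cleavage system, averaged 882 ± 359 FPKM in expanded blastocysts and 5316 ± 1595 FPKM in morulae. SKP1, a subunit of SCF ubiquitin ligases, averaged 316 ± 85.4 FPKM in expanded blastocysts and 4023 ± 674 FPKM in morulae, a difference of -3.699 (SE 0.26, adjusted p = 5e-06). LOC100240716, which the sources used here do not describe further, averaged 487 ± 128 FPKM in expanded blastocysts and 6311 ± 891 FPKM in morulae.

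**Figure D2:**
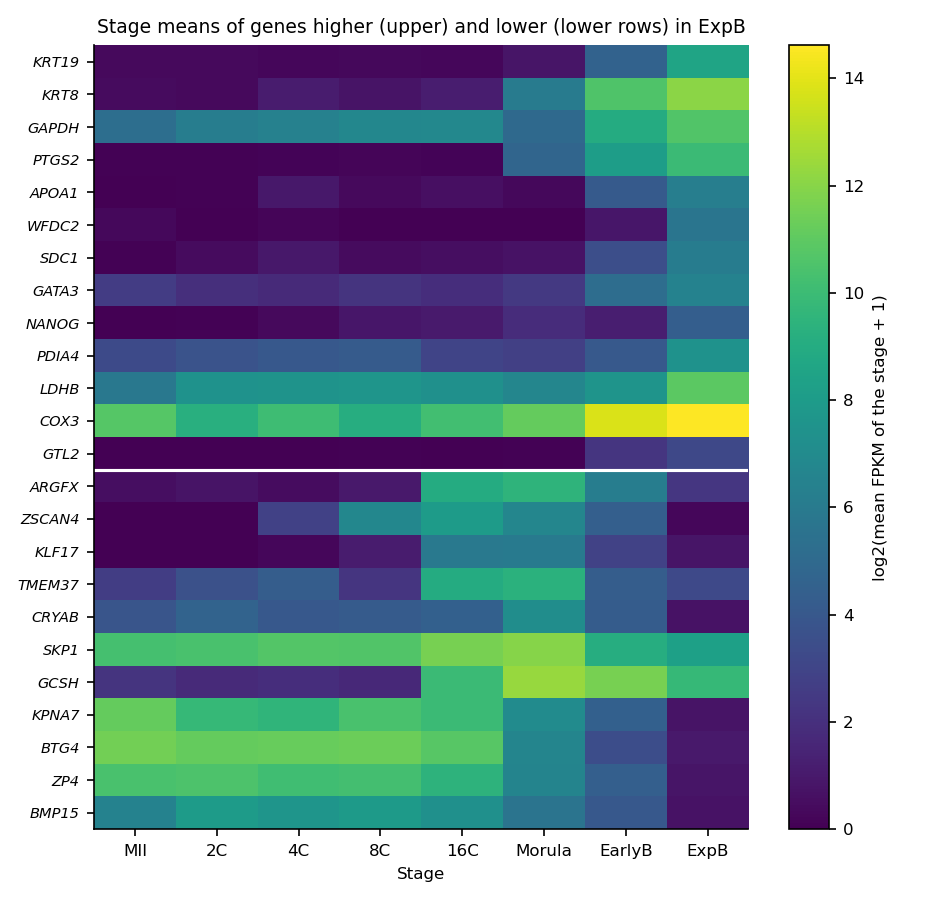
Log2 of the mean FPKM of each stage plus 1 (colour) for genes higher (rows above the white line) and lower (rows below it) in expanded blastocysts than in morulae, over the 8 stages from MII oocyte to expanded blastocyst (columns). Oocyte genes such as BTG4, ZP4 and KPNA7 were lower in morulae than in 16-cell embryos and lowest in ExpB, ARGFX and TMEM37 peaked in 16-cell embryos and morulae, and KRT19, WFDC2 and SDC1 were near 0 up to the morula.

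The trophectoderm genes moved mostly upward. Of 40 members in the table, 34 passed the expression filter, 23 of them rose and 2 fell, with a median difference of 1.69. These rises include KRT19, CLDN4, CGN, PTGS2, DAB2 and SLC7A5, which are counted again in lists below, so the counts of these lists share genes. Among transcription factors, GATA3, a driver of trophectoderm fate in mouse, had 100.1, 83.2, 97.1 and 75.9 FPKM in expanded blastocysts, against 5.82, 3.94 and 3.15 FPKM in morulae, a difference of 4.11 (SE 0.21, adjusted p = 1.4e-06). CDX2, the caudal-type homeobox factor that keeps trophectoderm from expressing epiblast genes in mouse, reached 10.04, 1.76, 4.08 and 3.19 FPKM in expanded blastocysts and was at or close to 0 in morulae, with 0, 0.0358 and 0 FPKM. GATA2, a relative of GATA3, had 10.6, 3.08, 3.96 and 3.11 FPKM in expanded blastocysts, against 0.454, 0.923 and 0.456 FPKM in morulae. ExpB library 1 was well above the other expanded blastocysts for both CDX2 and GATA2. TFAP2A, an AP-2 factor, averaged 6.62 ± 1.84 FPKM in expanded blastocysts and 0.444 ± 0.384 FPKM in morulae. HAND1, a factor of later trophoblast, averaged 2.84 ± 1.64 FPKM in expanded blastocysts and 0.145 ± 0.1295 FPKM in morulae; the groups did not overlap for either. DLX3, a homeobox gene of the later placenta, missed the rule with a difference of 0.67 (SE 0.26, adjusted p = 0.051). EOMES, a T-box factor of mouse trophoblast, did not pass the filter, with at most 0.209 FPKM in any ExpB library.

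TEAD4, the factor that starts the trophectoderm programme in mouse, fell. It had 4.28, 2.01, 2.15 and 3.25 FPKM in expanded blastocysts, against 6.08, 7.87 and 7.601 FPKM in morulae, a difference of -1.09 (SE 0.24, adjusted p = 0.0034). The call was lost with median-ratio scaling (-0.84), quantile normalization (-0.86) and without ExpB library 2 (-0.98). VGLL1, a cofactor that binds TEAD proteins, had 48.3, 35.6, 31.98 and 32.98 FPKM in expanded blastocysts, against 0, 0 and 1.33 FPKM in morulae, of which 2 libraries were listed at 0. Of 15 tested members listed as secreted or surface, 12 rose, BMP4 fell, and FGFR2 and PAG3 were not called. The interferon tau genes listed (IFN-TAU, IFNT, IFNT2 and IFNT-C1) were not tested, being absent from the table or below the filter. The same holds for TKDP2, TKDP4, PAG4, PAG6 and PAG11. LGALS3, a galectin, rose by 3.06 (1059, 692, 848 and 671 FPKM in expanded blastocysts, against 196, 109 and 40.3 FPKM in morulae). DAB2, an endocytic adaptor listed with them, rose by 2.71 (656, 538, 767 and 537 FPKM in expanded blastocysts, against 106, 124 and 62.8 FPKM in morulae). TKDP1, a trophoblast Kunitz domain protein of ruminants, was called higher although ExpB library 4, at 0.42 FPKM, lay within the range of the morulae, which had 0, 0.656 and 0 FPKM; without morula library 1 its difference was 1.47 with an adjusted p of 0.05, and the call was lost.

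**Figure D3:**
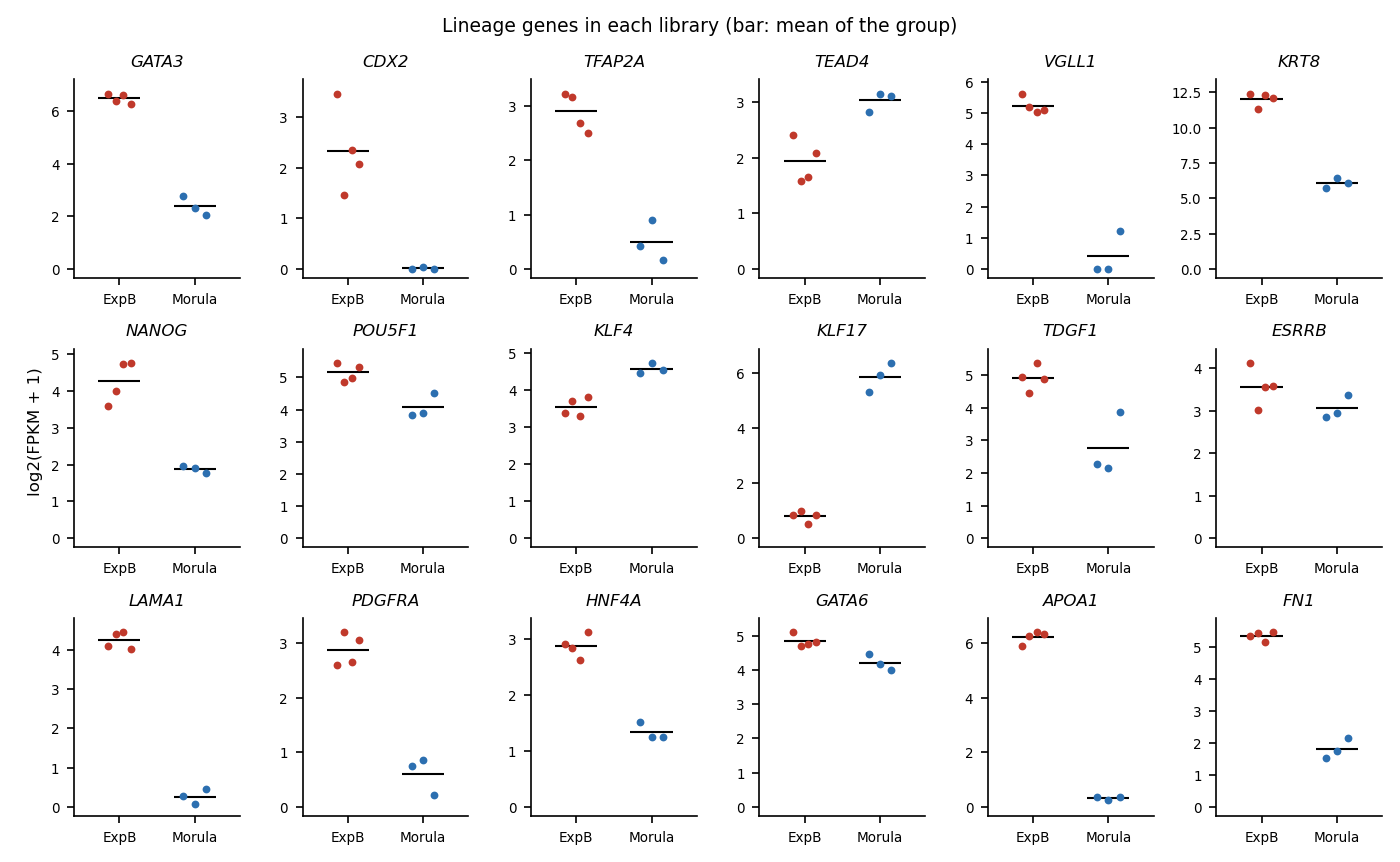
Log2(FPKM + 1) in each library (points; 4 ExpB libraries in red at the left, 3 morula libraries in blue at the right of each panel; bar, group mean) for 18 lineage genes. GATA3, CDX2, KRT8, LAMA1 and APOA1 lay far above the morulae in every ExpB library, KLF17, KLF4 and TEAD4 lay below them, and ESRRB overlapped.

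Pluripotency genes were called in both directions. Of 33 members in the table, 27 were tested, 7 rose and 7 fell. The share that fell was near the 25.9% of all tested genes, and the share that rose was above their 14.5%. With either rescaling, by median ratios or by quantiles, 7 rose and 3 fell. That lower share was below the 19.7% (median ratios) and 19.0% (quantiles) of all genes. The list's median of -0.15 changed sign to 0.15 with median-ratio scaling (0.17 after quantile normalization). NANOG, a homeobox factor of the epiblast, had 11.1, 15.1, 25.8 and 26.4 FPKM in expanded blastocysts, against 2.903, 2.75 and 2.39 FPKM in morulae, a difference of 2.403 (SE 0.30, adjusted p = 0.00012). POU5F1, which encodes OCT4, had 43.1, 27.8, 30.7 and 39.4 FPKM in expanded blastocysts, against 13.1, 13.7 and 21.8 FPKM in morulae. TDGF1, the Nodal co-receptor CRIPTO, had 29.9, 20.8, 41.03 and 28.8 FPKM in expanded blastocysts, against 3.81, 3.42 and 13.7 FPKM in morulae; both were higher without overlap, by 1.09 and 2.16. The POU5F1 call was close to the threshold, and 3 of the fits that left out a library brought its difference just under 1 (0.96 without morula library 1, 0.99 without morula library 2 and 0.99 without ExpB library 1). In the opposite direction KLF4 had 9.35, 12.1, 8.8 and 13.1 FPKM in expanded blastocysts, against 20.8, 25.7 and 22.4 FPKM in morulae, a difference of -1.03 (SE 0.20, adjusted p = 0.0015). That call was lost with median-ratio scaling (-0.75), quantile normalization (-0.71), TPM without mitochondrial genes (-0.99) and without morula library 2, ExpB library 1 or ExpB library 3 (-0.95, -0.97 and -0.95). ESRRB, an orphan nuclear receptor, and LIN28B, an inhibitor of let-7 processing, overlapped between the groups, with differences of 0.51 (adjusted p = 0.13) and 0.104 (adjusted p = 0.71). SOX2, a partner of OCT4, failed the filter, with at most 0.1999 FPKM in any ExpB library and at most 0.457 FPKM in any morula library. NODAL missed the size threshold at 0.797 (adjusted p = 0.039).

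Primitive endoderm genes had 12 higher and 1 lower of 19 tested (30 in the table), with a median of 1.6. By role, 11 of 14 tested signalling, matrix or secreted members rose, as did 1 of 5 tested transcription factors. PDGFRA, the receptor that marks primitive endoderm in mouse, had 5.07, 8.24, 5.26 and 7.28 FPKM in expanded blastocysts, against 0.684, 0.818 and 0.165 FPKM in morulae, a difference of 2.26 (SE 0.24, adjusted p = 5.1e-05). HNF4A, a nuclear receptor of endoderm, had 6.45, 6.12, 5.11 and 7.74 FPKM in expanded blastocysts, against 1.86, 1.37 and 1.37 FPKM in morulae. GATA6, the factor that opens the primitive endoderm programme in mouse, had 33.7, 24.8, 25.9 and 26.9 FPKM in expanded blastocysts, against 20.9, 16.97 and 14.97 FPKM in morulae; the groups did not overlap, but the difference of 0.63 (SE 0.19, adjusted p = 0.016) was below the threshold of size. GATA4 and SOX17, which follow GATA6 in mouse, stayed near 1 FPKM in expanded blastocysts, with 1.06, 1.04, 0.968 and 1.31 FPKM (GATA4) and 1.199, 1.75, 1.21 and 0.683 FPKM (SOX17), and neither was called; the SOX17 difference of 0.998 lay just under the threshold.

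Extracellular matrix genes rose in large part. Of 33 basement membrane genes in the table, 22 were tested, 14 rose and 3 fell, with a median of 1.22. The rising LAMA1, LAMC1, COL4A1 and FN1 and the falling NID2 are also in the primitive endoderm list, so the counts of these lists share genes. LAMA1, the alpha chain of the embryonic laminin, had 16.2, 19.9, 21.01 and 15.1 FPKM in expanded blastocysts, against 0.207, 0.0622 and 0.366 FPKM in morulae, a difference of 3.97 (SE 0.20, adjusted p = 1.2e-06). Its partner chain LAMC1 rose by 2.62, with 68.3, 76.3, 75.6 and 68.2 FPKM in expanded blastocysts, against 11.3, 12.1 and 9.48 FPKM in morulae. The other, LAMB1, had 56.9, 77.9, 64.98 and 62.1 FPKM in expanded blastocysts, against 30.3, 31.5 and 47.9 FPKM in morulae and was not called (difference 0.84). FN1, fibronectin, averaged 39.9 ± 4.18 FPKM in expanded blastocysts and 2.56 ± 0.776 FPKM in morulae. COL4A1, a collagen IV chain, averaged 4.198 ± 0.482 FPKM in expanded blastocysts and 0.716 ± 0.697 FPKM in morulae. AGRN, the heparan sulphate proteoglycan agrin, averaged 18.4 ± 3.15 FPKM in expanded blastocysts and 0.81 ± 0.427 FPKM in morulae. The receptors diverged: ITGA5 and ITGB1, which together form a fibronectin receptor, rose by 2.11 and 1.95, while ITGAV fell by 1.102, with 2.76, 4.52, 3.23 and 3.98 FPKM in expanded blastocysts, against 10.1, 11.98 and 5.56 FPKM in morulae. Median-ratio scaling (-0.85), quantile normalization (-0.86) and leaving out morula library 2 (-0.9003) each ended the ITGAV call.

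The epithelial machinery was uneven as well. Among 57 junction and polarity genes in the table, 43 were tested, 19 rose and 4 fell (median 0.90). The desmosomal cadherins went both ways. DSC2 had 30.3, 42.9, 33.2 and 33.1 FPKM in expanded blastocysts, against 0.662, 0.965 and 0.273 FPKM in morulae, a difference of 4.47 (SE 0.21, adjusted p = 9.1e-07), and DSG2 rose by 2.25. DSC3, named after its values were seen, fell by 1.13, with 0.214, 0.325, 0.235 and 0.5102 FPKM in expanded blastocysts, against 1.67, 1.91 and 2.08 FPKM in morulae, and its call was lost with median-ratio scaling (-0.98) and quantile normalization (-0.91). Of the tight junction genes, CLDN4, CLDN8 and CLDN23 encode claudins and rose by 2.18, 2.69 and 3.81, and OCLN, occludin, had 22.9, 33.6, 30.9 and 31.4 FPKM in expanded blastocysts, against 9.15, 10.4 and 6.799 FPKM in morulae. CLDN6, the most abundant of the claudins named here, had 183, 127, 158 and 157 FPKM in expanded blastocysts, against 92.9, 83.2 and 150.2 FPKM in morulae, which overlapped and was not called (difference 0.55). TJP1, which encodes the junction scaffold ZO-1, was not called, at 0.86. Among polarity genes PRKCZ, an atypical protein kinase C, had 16.02, 14.3, 19.2 and 16.2 FPKM in expanded blastocysts, against 1.46, 1.22 and 1.09 FPKM in morulae. CRB3, a Crumbs protein of the apical membrane, rose by 1.72, whereas PARD6B overlapped between the groups. The adherens junction core did not pass: CDH1, E-cadherin, had 26.98, 32.6, 34.6 and 35.2 FPKM in expanded blastocysts, against 30.9, 19.1 and 16.3 FPKM in morulae, which overlapped, and CTNNB1, beta-catenin, differed by -0.68.

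Keratins and the cortical cytoskeleton had the highest median of the lists, 2.55, with 27 of 36 tested members higher and 5 lower of 45 in the table. Only 5 keratins were tested: KRT8, KRT18 and KRT19 rose, and KRT5 and KRT10 fell. EZR, the ezrin of microvilli, had 621, 379.8, 488 and 498 FPKM in expanded blastocysts, against 49.9, 59.01 and 33.6 FPKM in morulae, a difference of 3.38 (SE 0.24, adjusted p = 5.4e-06). ANXA2 and its partner S100A10 averaged 56.3 ± 16.5 FPKM in expanded blastocysts and 9.26 ± 6.37 FPKM in morulae (ANXA2) and 434 ± 90.7 FPKM in expanded blastocysts and 54.7 ± 55.9 FPKM in morulae (S100A10), and ANXA3, another annexin, rose by 4.75. Morula library 1 held several times more S100A10 than the other morulae, 119, 16.9 and 28.3 FPKM over the 3.

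Genes of cavity filling were mixed. Of 42 members in the table, 22 were tested, 7 rose and 5 fell, with a median of 0.16. ATP1B1, a beta subunit of the sodium pump, had 6.45, 4.38, 4.29 and 4.76 FPKM in expanded blastocysts, against 6.55, 3.599 and 5.796 FPKM in morulae, which overlapped, and did not pass the test. The alternative beta subunit ATP1B3 had 276, 418, 454 and 329.6 FPKM in expanded blastocysts, against 154, 112 and 126 FPKM in morulae, a difference of 1.48 (SE 0.22, adjusted p = 0.00034), and FXYD4, a small regulatory subunit of the pump, had 728, 324, 542 and 309 FPKM in expanded blastocysts, against 14.8, 10.9 and 11.7 FPKM in morulae, a difference of 5.06 (SE 0.30, adjusted p = 2.4e-06). Among the water channels AQP3, which had 19.8, 7.02, 9.56 and 11.9 FPKM in expanded blastocysts, against 6.66, 7.09 and 4.67 FPKM in morulae, overlapped and was not called, and AQP11, a channel of intracellular membranes, fell by 2.55 (5.2, 11.1, 7.85 and 6.804 FPKM in expanded blastocysts, against 35.9, 49.01 and 65.6 FPKM in morulae). CA2, carbonic anhydrase, rose by 2.69. SLC12A2, the sodium-potassium-chloride cotransporter, fell by 2.53, and CFTR, a chloride channel, fell by 1.48, with 1.32, 0.221, 0.641 and 0.305 FPKM in expanded blastocysts, against 3.01, 3.99 and 3.15 FPKM in morulae.

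Signalling lists had counts on both sides. Hippo pathway genes, which read cell position in the morula, gave 7 higher and 6 lower of 27 tested (30 in the table), with a median of 0.04 that was -0.02 on the TPM scale; with either rescaling 9 were higher and 3 lower. YAP1, the coactivator that TEAD4 binds, was at 16.6, 24.7, 19.98 and 18.9 FPKM in expanded blastocysts and 15.5, 14.5 and 13.4 FPKM in morulae and was not called (0.43). AMOT, an angiomotin that holds YAP1 at junctions, rose by 1.63, and WWC1, an upstream activator of the kinases, rose by 1.72. The kinase LATS2 and the tumour suppressor NF2 differed by -0.82 and -0.73 and were not called. The widely used target genes CCN1 and CCN2 fell by 1.52 and 2.67; CCN2 had 0.592, 1.12, 0.3897 and 0.636 FPKM in expanded blastocysts, against 7.24, 29.5 and 3.72 FPKM in morulae. CCN1 overlapped, since ExpB library 1 held 11.2 FPKM. The CCN1 call did not hold with no filter (adjusted p = 0.084), with either rescaling (-1.26 with median-ratio scaling, -1.23 with quantile normalization) or without morula library 2, ExpB library 3 or ExpB library 4 (-1.09, -1.3006 and -1.2044).

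FGF and ERK genes gave 7 higher and 5 lower of 28 tested (42 in the table), with a median of 0.13, and IGF genes 2 higher and 2 lower of 11 tested (19 in the table). The lower FGF and ERK calls were 3 with either rescaling and without morula library 1, ExpB library 3 or ExpB library 4. DUSP6, an ERK phosphatase that ERK signalling itself induces, had 19.3, 14.8, 14.99 and 13.4 FPKM in expanded blastocysts, against 1.73, 3.52 and 1.95 FPKM in morulae, whereas its relative DUSP5 had 0.613, 1.51, 0.902 and 1.75 FPKM in expanded blastocysts, against 25.5, 55.03 and 14.3 FPKM in morulae. The early response genes FOS and IER3 also parted, with differences of -1.82 and 1.73. FGFR2 missed the size threshold at 0.94 and FGF4, an epiblast ligand in mouse, had at most 0.298 FPKM in any of the 7 libraries. IGFBP2, which binds insulin-like growth factors, rose by 3.22 (41.4, 28.1, 27.8 and 35.7 FPKM in expanded blastocysts, against 3.402, 4.38 and 1.03 FPKM in morulae), and IGF2R, the receptor that clears IGF2, rose by 2.19 (10.96, 9.89, 8.11 and 7.27 FPKM in expanded blastocysts, against 1.34, 1.56 and 0.749 FPKM in morulae). IGF1R had 2.82, 2.47, 2.55 and 2.65 FPKM in expanded blastocysts, against 3.07, 2.42 and 2.47 FPKM in morulae, which overlapped (difference -0.01, adjusted p = 0.97). IGF2BP3, an RNA-binding protein of the early embryo, fell by 1.13, and IGFBP7 fell by 1.05 although its groups overlapped. The IGF2BP3 call was lost with both rescalings (-0.83 and -0.76) and without morula library 3 (-0.99), and the IGFBP7 call with both rescalings (-0.77 and -0.75), with no filter, with a replicate block, in the fit on all 26 libraries and without morula library 1 or 3 or ExpB library 2 or 4 (-0.72 to -1.05).

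PTGS2 and AKR1B1, enzymes of prostaglandin synthesis, rose to high levels. By stage means AKR1B1 had already stood at 1307 FPKM in MII oocytes, where PTGS2 had 0.0579 FPKM. PTGS2, the inducible cyclooxygenase, had 1186, 1006, 1009 and 735 FPKM in expanded blastocysts, against 13.1, 25.6 and 38.7 FPKM in morulae, a difference of 5.303 (SE 0.33, adjusted p = 2.7e-06), and AKR1B1, an aldo-keto reductase with prostaglandin F synthase activity in cattle, had 1951, 1193, 1874 and 1301 FPKM in expanded blastocysts, against 53.1, 118 and 61.2 FPKM in morulae, a difference of 4.39 (SE 0.30, adjusted p = 4.6e-06). PTGES, the inducible prostaglandin E synthase, had 53.8, 45.8, 40.6 and 34.4 FPKM in expanded blastocysts, against 57.6, 94.7 and 79.2 FPKM in morulae; the groups did not overlap but the difference of -0.798 was below threshold. HPGD, which degrades prostaglandins, was at or close to 0 in expanded blastocysts (0.322, 0, 0 and 0.0163 FPKM) and had 4.64, 3.89 and 8.51 FPKM in morulae. The list as a whole had 4 higher and 4 lower of 13 tested (18 in the table). PPARG, a nuclear receptor of the trophectoderm in sheep, overlapped at around 1 FPKM in both groups (difference -0.33).

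Genes of glucose use rose more often than they fell, and the subunits of lactate dehydrogenase moved in opposite directions. Of 38 members in the table, 25 were tested, 10 rose and 3 fell, with a median of 0.96. GAPDH had 1697, 1063, 1695 and 1925 FPKM in expanded blastocysts, against 24.01, 31.5 and 36.9 FPKM in morulae, a ratio of means of 51.8 and a difference of 5.64 (SE 0.24, adjusted p = 6.9e-07); by stage means it had stood at 111 FPKM in 16-cell embryos, above the morulae. ENO1, enolase, rose by 4.11. LDHB, the lactate dehydrogenase subunit of the heart form, had 1997, 1871, 2200.0 and 1627 FPKM in expanded blastocysts, against 91.5, 112 and 106 FPKM in morulae, while LDHA, that of the muscle form, had 12.4, 22.8, 15.1 and 21.6 FPKM in expanded blastocysts, against 50.8, 48.04 and 44.9 FPKM in morulae; the differences were 4.203 (SE 0.17, adjusted p = 6.1e-07) and -1.41 (SE 0.23, adjusted p = 0.00064). Of the glucose transporters SLC2A1 rose (92.6, 88.04, 102 and 119 FPKM in expanded blastocysts, against 24.6, 20.7 and 24.9 FPKM in morulae), and SLC2A3 overlapped with a difference of -0.56 (adjusted p = 0.091). The hexokinases HK1 and HK2 leaned opposite ways, 0.93 and -0.75, and neither was called. Genes with near-identical copies, GAPDH among them, are uncertain where reads could have been split between copies.

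Cholesterol and lipid genes rose widely. Of 49 in the table, 44 were tested, 25 rose and 3 fell, with a median of 1.31, and within cholesterol synthesis 11 of 17 tested rose and none fell. HMGCS1, the HMG-CoA synthase of that pathway, had 13.6, 17.6, 13.7 and 10.1 FPKM in expanded blastocysts, against 2.801, 1.43 and 2.62 FPKM in morulae, a difference of 2.17 (SE 0.24, adjusted p = 6.3e-05). SQLE and FDPS, later enzymes of the pathway, rose by 2.36 and 2.98, and INSIG1, which holds the pathway back, overlapped (difference 0.84). In fatty acid synthesis ELOVL6, an elongase, had 75.96, 91.4, 101 and 109 FPKM in expanded blastocysts, against 2.35, 4.72 and 2.67 FPKM in morulae. SCD, the stearoyl-CoA desaturase, rose by 2.06 and FASN, fatty acid synthase, by 1.39. The lipid droplet coats exchanged: PLIN3 had 40.01, 23.2, 31.1 and 37.9 FPKM in expanded blastocysts, against 0.835, 5.43 and 3.704 FPKM in morulae, and PLIN2 had 15.1, 16.7, 14.2 and 14.3 FPKM in expanded blastocysts, against 86.0, 39.3 and 55.3 FPKM in morulae. FABP5, a fatty acid binding protein, and APOE rose by 2.55 and 2.54.

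**Figure D4:**
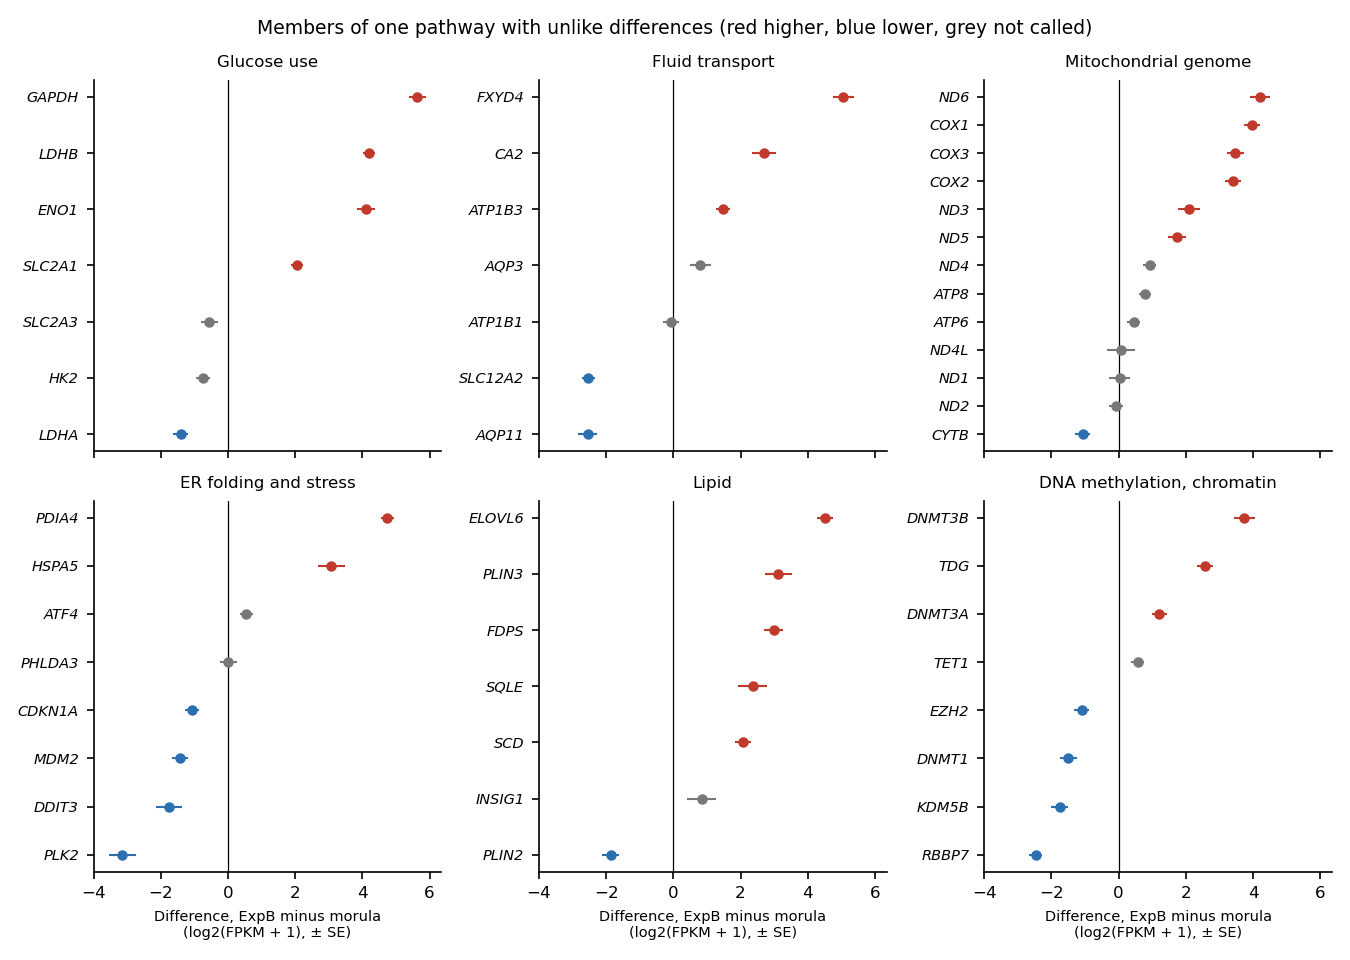
Differences in log2(FPKM + 1), expanded blastocyst minus morula, with SE (horizontal axis) for named members of 6 groups of genes (vertical axis); red points were called higher, blue points lower and grey points not called. In each panel members of 1 group lie on both sides of 0, for example LDHB at 4.203 and LDHA at -1.41, PLIN3 at 3.13 and PLIN2 at -1.86, and DNMT3B at 3.74 and DNMT1 at -1.49.

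Mitochondrial transcripts took 16.9% ± 0.847 of all FPKM in expanded blastocysts (SD, n = 4) and 8.03% ± 1.0 in morulae (SD, n = 3), counting the 13 protein genes of the mitochondrial genome. They did not move together: 6 of the 13 rose and 1 fell. COX1, COX2 and COX3, subunits of cytochrome oxidase, averaged 10860.0 ± 1353 FPKM in expanded blastocysts and 709 ± 216 FPKM in morulae (COX1), 13940.0 ± 2447 FPKM in expanded blastocysts and 1335 ± 362 FPKM in morulae (COX2) and 25070.0 ± 4431 FPKM in expanded blastocysts and 2329 ± 874 FPKM in morulae (COX3), with differences of 3.97 (SE 0.24, adjusted p = 2.3e-06) for COX1, 3.404 for COX2 and 3.47 for COX3. ND1, a complex I subunit read from the same genome, had 5113, 3640.3, 5170.5 and 3145 FPKM in expanded blastocysts, against 4370.1, 2530.1 and 6191 FPKM in morulae, which overlapped, a difference of 0.03 (adjusted p = 0.94). CYTB, cytochrome b, fell, with 1156, 1066, 1519 and 1450.4 FPKM in expanded blastocysts, against 3085, 1969.6 and 3217 FPKM in morulae, a difference of -1.07 (SE 0.23, adjusted p = 0.003); the call was lost with median-ratio scaling (-0.77) and without morula library 1, morula library 3 or ExpB library 2 (-0.97, -0.94 and -0.98). ND6, the subunit encoded on the other strand, had 44.4, 22.04, 48.1 and 31.7 FPKM in expanded blastocysts, against 1.58, 0.5605 and 0.805 FPKM in morulae. Of the 59 nuclear genes for the same complexes, 9 rose and 1 fell with a median of 0.26; with median-ratio scaling 19 rose and 1 fell. NDUFB10, SDHA and ATP5ME rose by 1.896, 1.83 and 1.78.

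Antioxidant genes rose in part: 12 of 31 tested (34 in the table) were higher and 5 lower, and with either rescaling 13 were higher and 3 lower. TXN, thioredoxin, had 5984, 3468, 5034 and 4505 FPKM in expanded blastocysts, against 884, 622 and 612 FPKM in morulae. GPX4, the peroxidase that clears lipid peroxides, had 1047, 795, 1007 and 909 FPKM in expanded blastocysts, against 256, 301 and 200.2 FPKM in morulae. PRDX2 rose by 2.36 while PRDX1 had 769, 849.6, 883 and 774 FPKM in expanded blastocysts, against 836, 809 and 997 FPKM in morulae, which overlapped, with a difference of -0.101. NQO1, a quinone reductase, rose by 3.19, and GSTM3, a glutathione transferase, fell by 2.77. In the small iron list (3 higher and 2 lower of 12 tested, 13 in the table) the light ferritin chain FTL rose by 1.49 and the heavy chain FTH1 overlapped (4158, 3721, 3879.5 and 4749 FPKM in expanded blastocysts, against 3782, 3690.2 and 2478 FPKM in morulae). The iron exporter SLC40A1 rose by 1.83 and the transferrin receptor TFRC fell by 1.54.

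Genes for the uptake and lysosomal breakdown of proteins rose. Endocytosis and lysosome genes had 17 higher and 1 lower of 26 tested (32 in the table), median 1.49. The lysosomal proteases CTSB and CTSD had 26.4, 22.4, 25.1 and 20.4 FPKM (CTSB) and 8.39, 11.2, 6.98 and 10.1 FPKM (CTSD) in expanded blastocysts, against 2.72, 6.38 and 2.26 FPKM (CTSB) and 1.03, 1.71 and 0.568 FPKM (CTSD) in morulae. CD63, a tetraspanin of late endosomes, rose by 4.02 (386, 462, 542 and 532 FPKM in expanded blastocysts, against 45.8, 15.8 and 31.4 FPKM in morulae), and CST3, the protease inhibitor cystatin C, rose by 2.91; CTSL, another cathepsin, overlapped and was not called (difference -1.04, adjusted p = 0.052). Amino acid transporters had 9 higher and 1 lower of 20 tested (25 in the table). SLC7A5 and SLC3A2, the chains of a transporter of large neutral amino acids, had 84.4, 54.2, 57.8 and 59.9 FPKM in expanded blastocysts, against 3.596, 6.099 and 3.34 FPKM in morulae for SLC7A5 and 192, 192, 209 and 218 FPKM in expanded blastocysts, against 38.6, 25.4 and 37.96 FPKM in morulae for SLC3A2, and SLC1A1, a glutamate transporter, and SLC7A11, a cystine transporter, rose by 3.13 and 2.32.

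Most genes of protein folding in the endoplasmic reticulum rose, and part of the p53 and apoptosis genes fell. Of 25 unfolded protein response genes, all of them tested, 17 rose and 2 fell, with a median of 1.80. HSPA5, the chaperone BiP, had 1730.5, 2450.3, 2365 and 2364 FPKM in expanded blastocysts, against 141, 566 and 224 FPKM in morulae, a difference of 3.07 (SE 0.40, adjusted p = 0.00016), and PDIA4, a disulphide isomerase, had 176, 152, 187 and 192 FPKM in expanded blastocysts, against 4.46, 7.25 and 5.53 FPKM in morulae, a difference of 4.74 (SE 0.19, adjusted p = 5.7e-07). ATF4, a transcription factor of that response, overlapped and was not called (0.54), and its target DDIT3, which encodes CHOP, had 143, 145, 112 and 112 FPKM in expanded blastocysts, against 265, 934 and 318 FPKM in morulae, a difference of -1.75 (SE 0.38, adjusted p = 0.0034); morula library 2 was the highest of the 7 for DDIT3. Of 20 tested p53 targets (22 in the table) none rose and 9 fell, and of 13 tested apoptosis genes (15 in the table) none rose and 6 fell. CDKN1A, a cell cycle inhibitor, had 14.3, 14.3, 15.2 and 13.1 FPKM in expanded blastocysts, against 36.6, 37.4 and 21.6 FPKM in morulae. MDM2, the ligase for p53, had 21.3, 24.7, 19.7 and 20.01 FPKM in expanded blastocysts, against 68.6, 40.9 and 73.3 FPKM in morulae. PLK2, a stress-induced kinase, had 9.28, 14.6, 8.72 and 7.08 FPKM in expanded blastocysts, against 155, 111 and 45.4 FPKM in morulae. The CDKN1A call was lost with median-ratio scaling (-0.78), quantile normalization (-0.72) and without morula library 1 or 2 (-0.95 and -0.94). PHLDA3, another p53 target, and BCL2L1, a survival factor, overlapped, with differences of 0.01 and 0.16, and were not called. Heat shock genes had 2 higher and 3 lower of 9 tested (10 in the table), and HSPB1 overlapped, with 0.799 to 43.7 FPKM among the morulae.

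Oocyte genes had the highest share of lower calls of the lists plotted. Of 41 in the table, 32 were tested, 28 fell and none rose, with a median of -2.93. GDF9 and BMP15, growth factors that oocytes secrete, had 1.32, 1.03, 3.26 and 0.855 FPKM (GDF9) and 0.151, 0.0572, 2.14 and 0.229 FPKM (BMP15) in expanded blastocysts, against 68.8, 50.6 and 66.4 FPKM (GDF9) and 53.6, 29.7 and 58.7 FPKM (BMP15) in morulae. ZP2, ZP3 and ZP4, proteins of the zona pellucida, fell by 5.73, 3.64 and 5.84, and BTG4, an adaptor of maternal RNA decay, by 5.70. KPNA7, the importin of oocytes, had 0.953, 0.1096, 1.16 and 0.504 FPKM in expanded blastocysts, against 68.7, 176 and 151 FPKM in morulae. BCL2L10, a survival factor of oocytes, had 0.727, 1.07, 5.25 and 1.07 FPKM in expanded blastocysts, against 155, 139 and 246 FPKM in morulae. ExpB library 3 held the most of ZP2, ZP4, GDF9, BMP15, BTG4, KPNA7 and BCL2L10 among the expanded blastocysts. NPM2, a histone chaperone of the egg, overlapped although it was called lower (0.0502, 0.9904, 0.397 and 0.457 FPKM in expanded blastocysts, against 0.599, 3.44 and 3.295 FPKM in morulae), and its call was lost with median-ratio scaling (-0.96), quantile normalization (-0.86) and no filter (adjusted p = 0.076), and without morula library 2 or 3 or any of ExpB libraries 1, 3 and 4 (-0.87 to -1.13). In the list of genome activation genes 2 rose and 6 fell of 13 tested (14 in the table); EIF1AX, an initiation factor, fell by 1.795, DUXB overlapped (difference -0.52, adjusted p = 0.11) and SLC34A2, a phosphate transporter, rose (199.6, 197, 267 and 211 FPKM in expanded blastocysts, against 168, 78.4 and 81.1 FPKM in morulae), a call that was lost on the TPM scale (0.9985) and without morula library 2, morula library 3 or ExpB library 3 (0.89, 0.91 and 0.98).

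Many genes for making ribosomes and splicing RNA fell, and few genes for the ribosome itself did. Of 76 ribosome biogenesis genes, all tested, none rose and 30 fell (median -0.86), and of 69 tested core spliceosome genes (70 in the table) none rose and 30 fell (median -0.90). With median-ratio scaling 19 and 20 fell, beside 19.7% of all genes, and the medians of both lists stayed below 0 and below the median of all genes. NOP58, a protein of the nucleolar methylation complex, had 178, 236, 216 and 245 FPKM in expanded blastocysts, against 753, 895 and 768 FPKM in morulae, while its partner NOP56 overlapped (difference -0.48) and NCL, nucleolin, differed by -0.33. UTP11, POLR1F and TAF1A fell by 1.88, 2.13 and 2.19. MAGOH, of the exon junction complex, had 139.7, 205, 224 and 160.2 FPKM in expanded blastocysts, against 1907, 1067 and 2039.6 FPKM in morulae. CWC15, PHF5A and U2AF2, spliceosome proteins, fell by 2.92, 2.17 and 2.21. The 76 cytosolic ribosomal protein genes had 16 higher, 1 lower and a median of 0.47; RPL3, RPL13 and RPL37 rose by 1.54, 1.65 and 1.59, and for each of them ExpB library 1 was the highest of the 7. Without ExpB library 1 the ribosomal protein list had 10 higher and 3 lower, and with median-ratio scaling it had 26 higher. These genes have many near-identical copies, so their counts are uncertain. SR proteins and hnRNPs changed little, with 1 higher and 6 lower of 38 tested and a median of -0.27 that turned positive under median-ratio scaling. SRSF3, an SR protein, had 203, 328, 278 and 308 FPKM in expanded blastocysts, against 796, 819.7 and 752 FPKM in morulae.

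Of 34 proteasome genes tested, 2 were higher and 12 lower (median -0.72). With either median-ratio scaling or quantile normalization 6 were lower, a smaller share than the 19.7% and 19.0% of all genes called lower in those fits. PSMD14, the deubiquitinase of the lid, had 67.8, 144, 120.4 and 142 FPKM in expanded blastocysts, against 491, 546 and 537 FPKM in morulae. PSMA2 and PSMA5, subunits of the core, fell by 1.95 and 1.98, and PSME2, a subunit of the interferon-inducible cap, rose, with 38.3, 47.7, 50.99 and 58.5 FPKM in expanded blastocysts, against 8.99, 7.68 and 9.504 FPKM in morulae. Cell cycle genes also fell: 3 rose and 23 fell of 46 tested (47 in the table), median -0.99. PCNA, the clamp of DNA polymerase, had 51.7, 117, 86.9 and 119 FPKM in expanded blastocysts, against 522, 912 and 329.8 FPKM in morulae. CCNE1, cyclin E1, had 5.399, 7.58, 4.55 and 8.69 FPKM in expanded blastocysts, against 56.1, 74.6 and 48.2 FPKM in morulae. AURKA, a mitotic kinase, had 19.1, 16.9, 16.2 and 17.96 FPKM in expanded blastocysts, against 138, 277 and 128 FPKM in morulae. CCNB1, CCNE2 and NDC80 fell by 1.76, 3.06 and 2.82. Among the D cyclins CCND1 fell (1.28, 0.615, 0.778 and 0.577 FPKM in expanded blastocysts, against 4.62, 3.78 and 8.63 FPKM in morulae) and CCND2 rose (2.68, 4.65, 4.61 and 4.07 FPKM in expanded blastocysts, against 0.794, 0.0378 and 0 FPKM in morulae). MKI67, a marker of cycling cells, had 3.697, 3.01, 3.74 and 3.01 FPKM in expanded blastocysts, against 5.34, 5.33 and 3.98 FPKM in morulae and was not called (difference -0.43, adjusted p = 0.073), and CDKN1C, an imprinted inhibitor, overlapped.

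The DNA methyltransferases moved apart. DNMT3B, a de novo methyltransferase, had 58.2, 25.6, 23.7 and 26.8 FPKM in expanded blastocysts, against 1.07, 1.98 and 1.29 FPKM in morulae, a difference of 3.74 (SE 0.31, adjusted p = 1.3e-05), and DNMT3A, the other, had 188, 112, 165 and 162 FPKM in expanded blastocysts, against 75.01, 72.2 and 53.4 FPKM in morulae, a difference of 1.21 (SE 0.22, adjusted p = 0.0012). DNMT1, which maintains methylation, had 4.69, 3.17, 3.499 and 4.15 FPKM in expanded blastocysts, against 12.3, 9.05 and 17.97 FPKM in morulae, a difference of -1.49 (SE 0.24, adjusted p = 0.00061). TDG, a glycosylase of active demethylation, rose by 2.58, and TET1, which oxidises methylated cytosine, differed by 0.56 and was not called. Over all 53 tested chromatin genes (61 in the table) 5 rose and 13 fell. EZH2, the H3K27 methyltransferase, fell by 1.103, a call lost with either rescaling (-0.89) and without morula library 3 (-0.92), RBBP7, a histone-binding subunit of several complexes, fell by 2.47 (46.99, 60.8, 68.1 and 60.7 FPKM in expanded blastocysts, against 299.7, 305 and 389 FPKM in morulae), KDM5B, an H3K4 demethylase, fell by 1.76 and SMARCA2, a remodelling ATPase, fell by 2.25. TRIM28 overlapped, with a difference of 0.24.

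**Figure D5:**
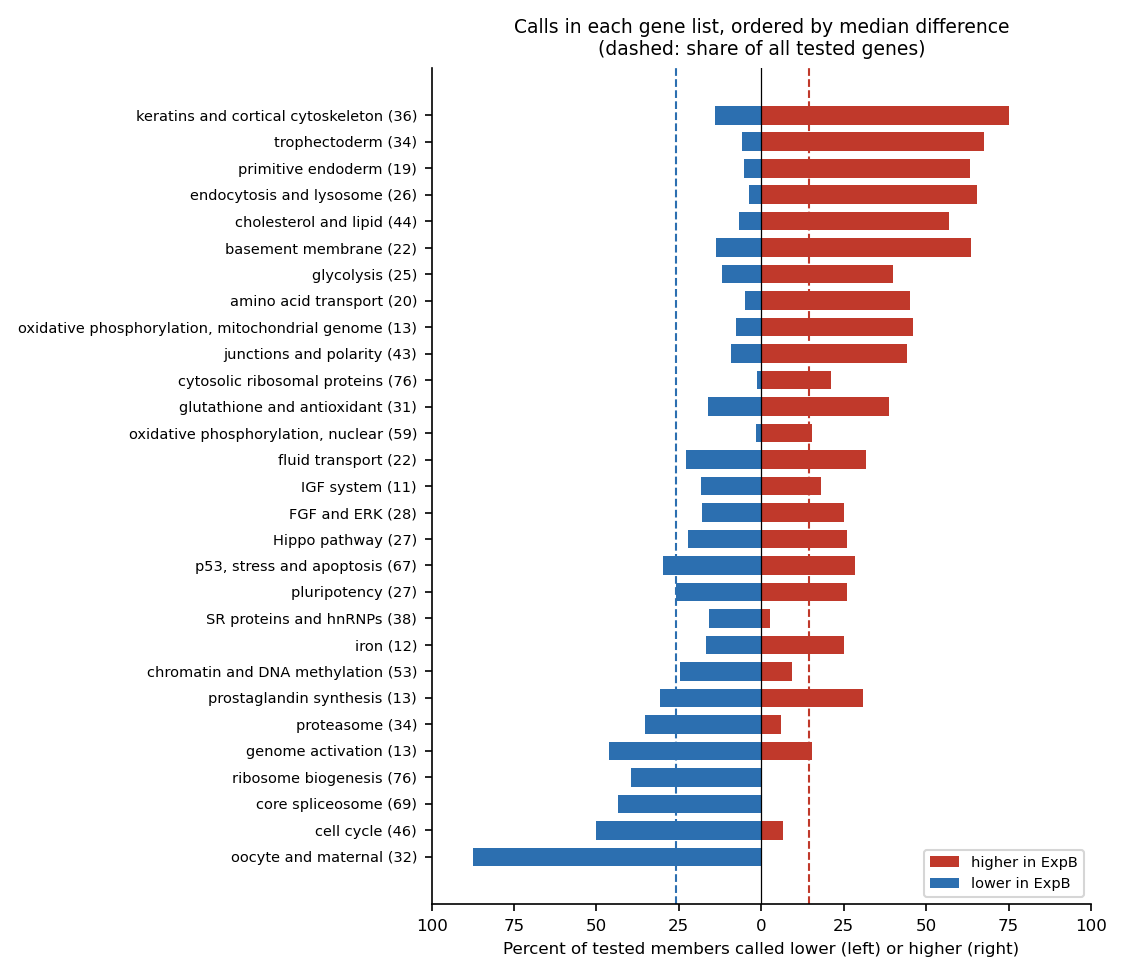
Percent of the tested members of each gene list called lower (blue, left) or higher (red, right) in expanded blastocysts than in morulae, with the number tested in brackets, ordered by the median difference of the list. The lists of cumulus and granulosa, sperm and blood cell markers are not drawn. The dashed lines are the shares over all 13056 genes, 25.9% lower and 14.5% higher. Lists from keratins and cortical cytoskeleton (27 of 36 higher) to oocyte genes (28 of 32 lower) run from top to bottom.

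Summed marker levels of cells that could have come with the embryos were low for sperm and blood, but not for cumulus and granulosa cells. Cumulus and granulosa markers had 2 higher and 4 lower of 9 tested (19 in the table). Their defining members FSHR, CYP19 and COL1A1 did not pass the filter. The summed level of the list was 170 to 411 FPKM in expanded blastocysts and 127 to 234 FPKM in morulae. Most of it was GATM, an enzyme of creatine synthesis that was named after its values were seen. The higher call of GATM was lost on the TPM scale, with no filter and with a replicate block. It was also lost without morula library 2 or 3 or ExpB library 2, 3 or 4 (0.64 to 1.26 over these fits). The other higher marker is not named here. STAR, TNFAIP6, VCAN and DCN were lower in expanded blastocysts and at most 9.30 FPKM in any library; VCAN was not called without morula library 3 (-0.97), nor TNFAIP6 in the fit on all 26 libraries (-2.25, adjusted p = 0.088). Sperm markers summed to 9.55 to 12.4 FPKM in expanded blastocysts and 24.3 to 32.8 FPKM in morulae, with none higher and 3 lower (PRM2, SPACA1 and CRISP2) of 7 tested (14 in the table). Blood markers summed to 2.26 to 4.38 FPKM in expanded blastocysts and 7.60 to 17.4 FPKM in morulae, with none higher and 2 lower (LYZ and CSF1R) of 5 tested (11 in the table), the CSF1R call being lost with median-ratio scaling (-0.9004), quantile normalization (-0.82), and without morula library 3 (-0.96) or ExpB library 2 (-0.99), and HBB, a globin chain, was listed at 0 in 3 of the 4 ExpB libraries. The part of these cells in the other results was not tested.

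The genes that rose and those that fell had different histories. In MII oocytes 45.6% of the 1893 genes higher in expanded blastocysts, 69.4% of the 3387 lower ones and 59.8% of all tested genes had a mean of at least 1 FPKM, and in 16-cell embryos the shares were 51.5%, 81.6% and 69.3%. The median level in 16-cell embryos was 1.1 FPKM for the genes that rose and 13.2 FPKM for those that fell. These shares describe genes already selected by their level in morulae and expanded blastocysts.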

How the data were processed

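The authors deposited 1 table of FPKM per gene and library; featureCounts 2.0.1, SAMtools 1.9, HISAT2 2.1.0 and fastp 0.23.4 stand in the submitters' processing notes. The genome build, the annotation and the strand setting were not stated in the sources used here. Depth was recovered from the steps between low FPKM values of small RNA genes, 99.7% to 100.0% of which were whole reads within 0.05; Smart-seq2 reads carry no molecular identifiers. Names of mitochondrial genes come from a reference gene table, whose symbols or tags matched 25456 of 30186 rows. Levels were fitted as log2(FPKM + 1) over the 7 libraries with limma 3.58.1 in R 4.3.3 (stage means, lmFit, eBayes with intensity trend, two-sided, degrees of freedom 5 residual plus 4.5 prior, Benjamini-Hochberg) and tested on simulated data first; this scale understates changes near or below 1 FPKM. The fit used no scaling beyond the deposited one. Alternatives were another pseudocount (0.1), other filters, TPM, median-ratio and quantile scaling, all 26 libraries, a replicate block, no trend and leaving out each library. The 32 gene lists were written from general knowledge, and the comparison and lists were chosen with earlier results of these data known, so their counts are descriptions. Some genes stand in more than 1 list. List members not found in the table were not analysed here. Named genes are the 15 largest rises and falls among called, non-overlapping genes with a mean of at least 10 FPKM in a group (LOC and TRN names left out), defining members of each list with up to 4 of its most changed called members, and the 3 largest changes in mean FPKM each way. Some genes that this rule names are not reported here.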

Additional observations from a re-analysis of the deposited data

Results flagged for a closer look

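For each named gene and for the 3 measures per library, the 4 expanded blastocyst libraries were searched for 1 library whose distance to its nearest neighbour exceeded, as a share of the range of the group, the 95% critical value of Dixon's test for 4 samples; that share stands in brackets below. Of 230 values examined 18 met this, and chance gives about 1 in 20; groups of 3 such as the morulae were not examined. ExpB library 1 was the high library for the ribosomal protein genes RPL13 (0.902) and RPL37 (0.926), for ATP5ME (0.929), DNMT3B (0.912), FASN (0.908) and GATA2 (0.883), and, at levels under 1 FPKM, for HPGD (0.949) and TNFAIP6 (1.0). It was the low library for HSPA5 (0.881). It also had the fewest assigned reads of the 7 libraries, 19.3 in units of 1e6, and its part in these values was not tested. ExpB library 3 was the high library for the oocyte genes BCL2L10 (0.925), BMP15 (0.918), ZP2 (0.905) and ZP4 (0.853), all of which stayed far below the morulae there. ExpB library 2 was high for DUXB (0.965) and HBB (1.0) and low for SRM (0.876), and ExpB library 4 was high for ZSCAN4 (0.913) and SDR16C5 (0.875), both below 1 FPKM.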

How the results depend on the processing

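No called gene was called in the opposite direction in any of the 17 alternative fits. Of the 185 called genes named in the text, 167 kept their call in every fit that tested them. The 18 others are marked where they are described. Genes that a fit left out, such as CDX2, HAND1 and CCND2 at the filter of 5 FPKM, were not counted as having lost their call there. Counts of changed genes stayed within 1.5 times of the main count, except that the filter at 5 FPKM in at least 3 libraries, which tested 7162 genes, gave 3404 changed and 2094 lower. Leaving out 1 library at a time gave 5079 to 5332 changed genes, 1835 to 1905 higher and 3244 to 3442 lower. The fit with a replicate block, in which ExpB library 4 has no partner, gave 5367 changed, 1939 higher and 3428 lower. Deviations of same-numbered libraries from their group means had correlations of -0.0373, -0.0828 and 0.0013. With so few libraries these values cannot show whether same-numbered libraries shared a culture or batch, and the labels do not say. The share of calls that were higher was 35.9% as deposited, 48.5% with median-ratio scaling, 50.4% with quantile normalization and, in a fit chosen after seeing the data, 40.0% on the TPM scale without mitochondrial genes. Of 1084 counts of calls per list 107 moved by over 1.5 times, 24 of them from a count of at least 5. With median-ratio scaling these were pluripotency (3 lower), Hippo (3 lower), FGF and ERK (3 lower), antioxidant (3 lower), nuclear oxidative phosphorylation (19 higher), ribosomal proteins (26 higher), ribosome biogenesis (19 lower) and proteasome (6 lower). Signs turned for genes that were not called in any of these fits. ATP1B1 was 0.19 with median-ratio scaling, 0.17 with quantile normalization, 0.0015 on the TPM scale without mitochondrial genes and -0.28 to 0.0807 without 1 library. IGF1R was 0.21, 0.20 and 0.0548 in those 3 fits and -0.0539 to 0.0726 without 1 library. ND1 was -0.0533 on the TPM scale, -0.49 with quantile normalization and -0.32 to 0.33 without 1 library. FTH1 was -0.19 with quantile normalization, PRDX1 0.20 with median-ratio scaling and PHLDA3 -0.0724 on the TPM scale. Without 1 library PHLDA3 ranged from -0.17 to 0.28, BCL2L1 from -0.0509 to 0.28, CDKN1C from -0.42 to 0.81, HSPB1 from -1.13 to 1.18, LIN28B from -0.027 to 0.32 and TRIM28 from -0.0133 to 0.38. The causes were not tested. Without 1 library the difference was -1094.3 to -888.67 in the number of genes detected per library, 10.6 to 12.3 points in the share of FPKM in the 50 most abundant genes and 8.4 to 9.375 points in the share of FPKM in mitochondrial protein genes. A level of 1 FPKM stands for at least 19.3 reads per kilobase, so depth limits genes near 0.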

Other observations

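Small nucleolar RNA rows of the imprinted DLK1-GTL2 domain, the domain of the callipyge trait in sheep, were far higher in expanded blastocysts than in morulae. The genes of this paragraph were chosen after their values were seen. Of 33 such rows in the table, 5 were at 0 in all 7 libraries, 28 passed the filter and 26 of those were higher in expanded blastocysts. Of the 28, 22 were listed at 0 in all 3 morula libraries. Those 22 could pass the filter only through expanded blastocysts and could not be called lower. The count of higher rows was thus set in part by the filter. The summed level of the 33 rows was 1510, 957.7, 1172 and 874.2 FPKM in expanded blastocysts, against 6.74, 22.8 and 13.3 FPKM in morulae. By stage it was 0 in MII oocytes, 2-cell and 4-cell embryos, at most 3.45 FPKM in 8-cell embryos, at most 0.439 FPKM in 16-cell embryos and 73.3 to 267 FPKM in early blastocysts. The rows LOC114109223 and LOC114109207 had 274, 129, 215 and 159 FPKM (LOC114109223) and 145, 107, 131 and 92.8 FPKM (LOC114109207) in expanded blastocysts and were listed at 0 in every morula library. GTL2, the long noncoding RNA of the maternal allele, had 16.8, 4.78, 6.37 and 3.97 FPKM in expanded blastocysts, against 0.0665, 0.131 and 0 FPKM in morulae, a difference of 2.88 (SE 0.39, adjusted p = 0.00022), and ExpB library 1 was the highest of the 4. LOC105606646, a row whose span in the reference overlaps the small nucleolar RNA rows, rose by 4.58, and MIR3955, the 1 tested microRNA row of 54 in the domain, was higher as well, by 3.59. DLK1, the protein gene of the paternal allele, was listed at 0 in every ExpB library and at most 0.0487 FPKM in a morula. Overlapping genes cannot be told apart here, since the sources used here do not state a strand setting for the counting. Of 237 tested small nucleolar RNA rows elsewhere, 15 were higher and 67 lower, with a median of -0.49.

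Other gene classes, also chosen after their values were seen, lay below the background of 14.5% higher and 25.9% lower or apart from it. Of 172 genes named as numbered zinc fingers (ZNF) 4 rose and 33 fell (median -0.44, and -0.22 with median-ratio scaling). Of 75 mitochondrial ribosomal protein genes 3 rose and 18 fell (median -0.45, and -0.17 with median-ratio scaling), whereas of 162 solute carriers 48 rose and 25 fell (median 0.22, and 0.45 with median-ratio scaling). Long noncoding RNA rows gave 55 higher and 214 lower of 565 (median -0.69), beside 1641 higher and 2808 lower of 11037 protein-coding rows (median -0.26).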
